A study of Mus musculus with 5 samples.

Results

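Interferon-stimulated genes are the genes that cells switch on when interferons bind their receptors. A list of 35 such genes was followed in GFP+ Prx1-derived cells of mouse hindlimb muscle, by single-cell RNA sequencing (scRNAseq), before and after bone injury. The members were listed by symbol. The matrices held 34 of the 35 among 31055 features, and Mx2 was not analysed here. Of the 34, 33 had a mean of at least 1 CPM over the libraries, a limit that 12391 of all features passed. Mx1 did not reach it, so counts of members below are out of 33. A UMI is a molecular tag that marks 1 captured mRNA molecule, and CPM is a gene's UMIs as counts per 1e6 UMIs of a library.

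Type I interferons signal through IFNAR receptors and JAK kinases to a complex with STAT2 and IRF9 that binds the interferon-stimulated response element in promoters. Interferon gamma has its own receptor, acts on promoters with the gamma-activated sequence, and induces IRF1. The targets of both routes overlap. They block virus entry, translation and replication, sense foreign nucleic acid, and in part feed back on the pathway itself.

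The comparison asks how cells of muscle next to a broken bone respond to a fracture and to a fracture with muscle damage. All groups were Prx1Cre;mTmG mice on a C57Bl/6 background, males or females of 10 to 14 weeks. In these mice the Cre recombinase is driven by the Prx1 promoter of limb mesenchyme, and cells that had it, with their descendants, carry membrane GFP in place of Tomato. The groups were uninjured muscle (d0), 3 days (d3) or 5 days (d5) after a non-stabilized tibial fracture, and 3 or 5 days after polytrauma, in which the muscles around the tibia were also crushed. There was 1 library per condition, pooled from 2 mice, so no difference was tested, and intervals cover counting error only. Fibro-adipogenic and mesenchymal progenitors (FAP/MP) of muscle were the main cell type of interest.

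For 2 libraries the published cell numbers and the deposited labels disagree, and the cell numbers were followed. The one deposited as 5 days of fracture stands here for d3 post-polytrauma, and the one deposited as 3 days of polytrauma stands for d5 post-fracture. Values under the labels as deposited are given for the main medians and 2-fold counts of the members and for the share of cells with at least 5 members. For the other results they are not given. There, the values of these 2 libraries would trade places, and ratios and orders that use them would change. The 29831 retained cells were 4632 at d0, 5589 at d3 post-fracture, 1468 at d5 post-fracture, 6201 at d3 post-polytrauma and 11941 at d5 post-polytrauma. Median depth per cell was 3640 UMIs at d0 and between 15688 and 34949 in the other libraries. EGFP was found in 97.3% to 99.2% of cells, and tdTomato in at most 2 UMIs per library. The d0 and both d3 libraries shared 405 to 525 barcodes pairwise and the d5 libraries 944 with each other, whereas a d5 library shared at most 3 with a d0 or d3 library. Day 5 therefore cannot be told apart from a second set of barcodes. Cells with at least 2 hematopoietic markers made up 0.367% of the d0 library, 1.20% at d3 post-fracture, 5.18% at d5 post-fracture, 3.08% at d3 post-polytrauma and 0.946% at d5 post-polytrauma, at the full and unequal depth of each library.

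The promoters of many members hold the letters of the interferon-stimulated response element. RefSeq promoters (GRCm38.p6, 250 bases before to 50 after the start) were found for 26 of the 35 members. The element was searched as GAAANNGAAA on both strands, which reads TTTCNNTTTC on the other strand. At least 1 match was found for 19 of the 26 members (73.1%), against 3.44% of the 32851 promoters of this length. At least 2 matches, overlapping ones included, were found for 9 members, against 0.225% of all promoters. The gamma-activated sequence, TTCNNNGAA, was found for 6 members (23.1%), against 8.30% of all promoters. A member was counted where any of its promoters matched, whereas the share of all promoters counts each one singly. Irf9, Ifit2, Ifi203 and Gbp3 had 2 promoters each, so the shares of members are somewhat favoured. A match is a description of letters and not a binding site. The stretches below are shown as examples from the members with a match, and none overlaps the gene itself in GENCODE M21. Capitals mark the response element on either strand, and each stretch reads 5′ to 3′ on the strand of the gene.
Isg15, chr4:156200865-156200926, minus strand: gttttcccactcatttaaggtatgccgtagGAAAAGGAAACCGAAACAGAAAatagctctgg
Ifit1, chr19:34640755-34640823, plus strand: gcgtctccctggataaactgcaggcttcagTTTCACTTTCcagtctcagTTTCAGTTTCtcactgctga
Ifit3, chr19:34583343-34583426, plus strand: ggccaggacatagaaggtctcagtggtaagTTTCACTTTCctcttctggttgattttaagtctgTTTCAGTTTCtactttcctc
Rsad2, chr12:26456553-26456602, minus strand: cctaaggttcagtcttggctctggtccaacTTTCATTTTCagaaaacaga
Igtp, chr11:58199492-58199541, plus strand: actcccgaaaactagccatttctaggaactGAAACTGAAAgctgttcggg
Gbp3, chr3:142559969-142560024, plus strand: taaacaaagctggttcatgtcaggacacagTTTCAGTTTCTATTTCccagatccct
Ifi205, chr1:174031870-174031919, minus strand: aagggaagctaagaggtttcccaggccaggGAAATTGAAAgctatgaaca
Ifi207, chr1:173741831-173741880, minus strand: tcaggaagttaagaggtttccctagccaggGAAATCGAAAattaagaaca
In Isg15, 3 matches overlap in a run that starts 78 bases before the start of the gene. Ifit1 and Ifit3 each hold 2 separate matches, and Gbp3 holds 2 that overlap. Ifi205 holds a further match 24 bases after its start, which is not printed. Members without a match in this window were Irf9, Irf7, Ifit2, Oasl2, Ifi35, Ifi44 and Xaf1.

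As a share of all UMIs, these genes were highest in cells of uninjured muscle and lowest 3 days after a simple fracture. The summed level of the members was 2041 CPM at d0 (95% Poisson interval 2020 to 2062), 402 at d3 post-fracture (398 to 406), 1086 at d5 post-fracture (1077 to 1095), 848 at d3 post-polytrauma (842 to 853) and 511 at d5 post-polytrauma (508 to 514). This sum is weighted towards genes with many UMIs: the HIN-200 genes alone held 56.6% of the member UMIs at d0 and 25.2% at d5 post-fracture. Gene by gene, d0 was the highest library for 18 of the 33 members, d5 post-fracture for 12 and d3 post-polytrauma for 3. The lowest was d3 post-fracture for 26 members, d5 post-polytrauma for 5 and d0 for 2. The order was not counted over all genes, so these counts do not show how far it is particular to the members.

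**Figure D1:**
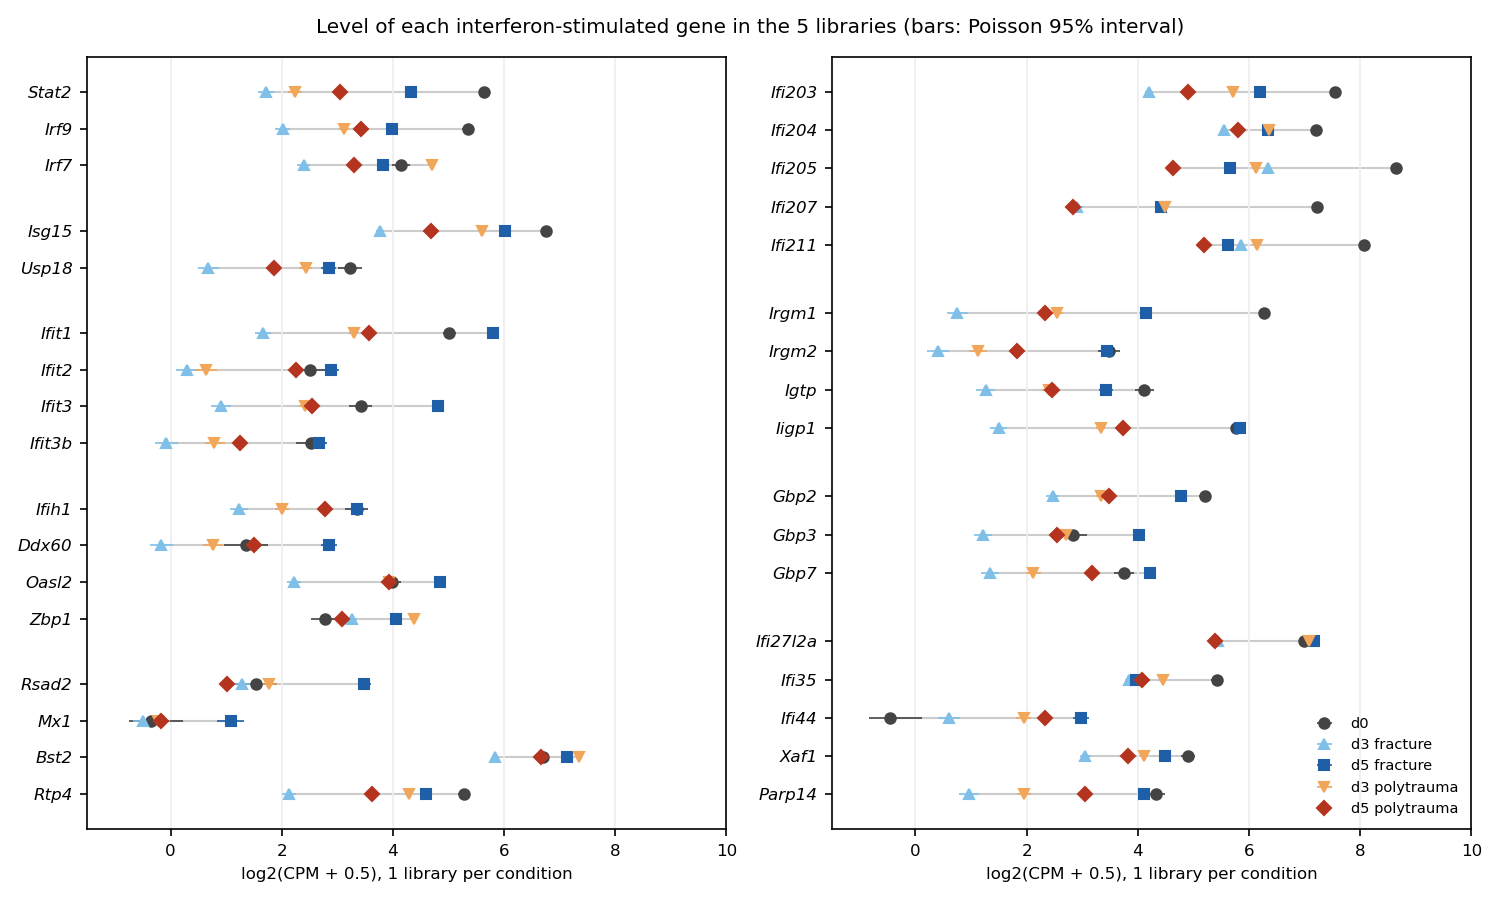
Level of the 34 members found, as log2(CPM + 0.5) on the x axis, with 1 symbol per library, 95% Poisson intervals and genes grouped by role. The d3 post-fracture library lies at the low end for most genes, and d0 lies above the others for the HIN-200 genes and Irgm1. The d5 post-fracture library lies highest for the IFIT genes, Ddx60, Oasl2 and Rsad2.

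Among the genes that transmit the signal, Stat2, a subunit of the type I complex, was at 49.6 CPM at d0, 2.78 at d3 post-fracture, 19.6 at d5 post-fracture, 4.23 at d3 post-polytrauma and 7.80 at d5 post-polytrauma. Irf9, the DNA-binding subunit of that complex, was at 40.3, 3.54, 15.3, 8.21 and 10.3 CPM in the same order. Both were highest at d0 and lowest at d3 post-fracture. Irf7, a factor that amplifies type I interferon production, had another order, with 17.1 CPM at d0, 4.75 at d3 post-fracture, 13.6 at d5 post-fracture, 25.6 at d3 post-polytrauma and 9.37 at d5 post-polytrauma. It was 5.38-fold higher at d3 post-polytrauma than at d3 post-fracture (interval 4.88 to 5.95), the highest ratio of any member in that comparison.

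Isg15 encodes a ubiquitin-like protein that is attached to other proteins, and Usp18 the protease that removes it and dampens the receptor. Isg15 was at 107 CPM at d0, 13.2 at d3 post-fracture, 64.5 at d5 post-fracture, 48.1 at d3 post-polytrauma and 25.3 at d5 post-polytrauma. Usp18 was at 8.89, 1.10, 6.67, 4.89 and 3.12 CPM in these libraries. The pair ran through the 5 libraries in the same order, from d0 down to d3 post-fracture.

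The IFIT proteins bind viral RNA and block its translation, and their genes lie side by side on chromosome 19. Ifit1 was at 31.9 CPM at d0, 2.66 at d3 post-fracture, 55.4 at d5 post-fracture, 9.30 at d3 post-polytrauma and 11.4 at d5 post-polytrauma. Ifit3 was at 10.2, 1.37, 27.4, 4.85 and 5.36 CPM. Ifit2 was at 5.22, 0.730, 6.94, 1.06 and 4.29 CPM and Ifit3b at 5.28, 0.440, 5.84, 1.23 and 1.89 CPM. All 4 IFIT genes were highest at d5 post-fracture and lowest at d3 post-fracture, although the intervals of d5 post-fracture and d0 overlapped for Ifit2 (6.24 to 7.70 against 4.20 to 6.41) and Ifit3b (5.20 to 6.54 against 4.25 to 6.47). Ifit3 and Ifit3b are close copies, so reads may have been divided between them or dropped. Their separate levels are uncertain.

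Sensors of nucleic acid took several orders. Ifih1, which encodes the RNA sensor MDA5, was at 9.69 CPM at d0, 1.85 at d3 post-fracture, 9.68 at d5 post-fracture, 3.51 at d3 post-polytrauma and 6.40 at d5 post-polytrauma. Ddx60, an RNA helicase, was at 2.06, 0.390, 6.71, 1.19 and 2.34 CPM, and Oasl2, of the oligoadenylate synthetase family, at 15.4, 4.14, 28.3, 14.7 and 14.8 CPM. Ddx60 and Oasl2 were thus highest at d5 post-fracture. Zbp1, a sensor of left-handed nucleic acid that can start cell death, was at 6.37 CPM at d0, 9.10 at d3 post-fracture, 16.2 at d5 post-fracture, 20.2 at d3 post-polytrauma and 7.98 at d5 post-polytrauma, and was 1 of 2 members with their lowest level at d0.

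Among other antiviral genes, Rsad2, which encodes viperin, an enzyme that makes a chain terminator of viral RNA synthesis, was at 2.41 CPM at d0, 1.93 at d3 post-fracture, 10.7 at d5 post-fracture, 2.91 at d3 post-polytrauma and 1.52 at d5 post-polytrauma. Bst2, which encodes tetherin and holds budding viruses at the cell surface, was at 103, 56.9, 139, 163 and 101 CPM. Rtp4, a chaperone of membrane receptors with antiviral activity, was at 38.3, 3.88, 23.8, 19.0 and 11.9 CPM. These 3 genes each peaked in a different library, Rsad2 at d5 post-fracture, Bst2 at d3 post-polytrauma and Rtp4 at d0. Mx1, a GTPase against influenza and related viruses that is defective in common laboratory mouse strains, was at 0.287 CPM at d0, 0.210 at d3 post-fracture, 1.62 at d5 post-fracture, 0.358 at d3 post-polytrauma and 0.386 at d5 post-polytrauma.

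The HIN-200 genes, which lie together on chromosome 1 and encode nuclear proteins of which some sense DNA, were highest in uninjured muscle. Ifi205 was at 402 CPM at d0, 80.9 at d3 post-fracture, 50.1 at d5 post-fracture, 69.6 at d3 post-polytrauma and 24.2 at d5 post-polytrauma. Ifi211 was at 269, 57.8, 48.9, 70.2 and 35.9 CPM, and Ifi207 at 149, 7.01, 20.8, 22.0 and 6.64 CPM. All 5 genes of the family were highest at d0, and their sum was 1155 CPM there and 152 to 296 CPM in the injured libraries. Ifi203 was at 187 CPM at d0, 17.9 at d3 post-fracture, 72.9 at d5 post-fracture, 51.9 at d3 post-polytrauma and 29.6 at d5 post-polytrauma, and Ifi204 at 147, 46.5, 81.1, 82.2 and 55.3 CPM. Ifi205 was the only one of the 33 members that was lower at d3 post-polytrauma than at d3 post-fracture, 1.16-fold (interval 1.13 to 1.20). These genes are alike in sequence, and reads may have been divided among them.

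The immunity-related GTPases (IRG) act on membranes around intracellular pathogens. Irgm1, a regulator of the other IRG proteins, was at 76.6 CPM at d0, 1.19 at d3 post-fracture, 17.2 at d5 post-fracture, 5.32 at d3 post-polytrauma and 4.52 at d5 post-polytrauma. Its d3 post-fracture level was 64.3-fold below d0 (interval 53.3 to 78.2), the widest gap of any member in any of the 6 comparisons. Iigp1, an effector GTPase, was at 54.3, 2.33, 56.6, 9.61 and 12.8 CPM, and its levels at d0 and d5 post-fracture were within counting error (ratio 1.04, interval 0.970 to 1.12). Igtp was at 16.9, 1.90, 10.3, 4.77 and 5.02 CPM and Irgm2 at 10.7, 0.830, 10.4, 1.68 and 3.05 CPM. The annotated spans of Igtp and Irgm2 overlap on the same strand, so UMIs in the overlap may have been lost.

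The guanylate-binding proteins (GBP) are large GTPases that coat pathogens and their vacuoles. Gbp2 was at 36.5 CPM at d0, 5.04 at d3 post-fracture, 26.8 at d5 post-fracture, 9.63 at d3 post-polytrauma and 10.7 at d5 post-polytrauma. Gbp3 was at 6.65, 1.82, 15.7, 6.01 and 5.35 CPM, and Gbp7 at 13.0, 2.04, 18.2, 3.86 and 8.58 CPM. Gbp3 and Gbp7 were highest at d5 post-fracture, and Gbp2 at d0.

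Of the remaining members, Ifi27l2a, a small membrane protein gene, was at 127 CPM at d0, 43.2 at d3 post-fracture, 144 at d5 post-fracture, 134 at d3 post-polytrauma and 41.3 at d5 post-polytrauma. Ifi44 was at 0.229 CPM at d0, which rests on 4 UMIs, and at 1.02, 7.40, 3.37 and 4.53 CPM in the other libraries. It was the only member at least 2-fold higher than d0 in all 4 injured libraries. Parp14, an ADP-ribosyltransferase, was at 19.7, 1.46, 16.9, 3.38 and 7.76 CPM, Xaf1, a factor that promotes cell death, at 29.6, 7.81, 21.9, 16.8 and 13.7 CPM, and Ifi35 at 42.3, 13.9, 15.1, 21.3 and 16.3 CPM. Those 3 genes were highest at d0 and lowest at d3 post-fracture.

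Against uninjured muscle, as shares of all UMIs, most members were lower at d3 and at d5 post-polytrauma, and about as often higher as lower at d5 post-fracture. Cells held a median of 3640 UMIs at d0 and at least 15688 after injury. A lower share therefore need not be fewer UMIs per cell, and RNA content and sequencing depth cannot be told apart here. Ratios here are log2 ratios of CPM + 0.5, and a gene is counted as different from 2-fold upwards. At d3 post-fracture 29 of 33 members were at least 2-fold lower, where 27.7% of all genes were, and 1 was higher, where 11.1% were. At d3 post-polytrauma 18 members were lower (27.3% of all genes) and 2 higher (10.5%). At d5 post-polytrauma 21 were lower (17.3%) and 1 higher (20.5%). At d5 post-fracture 8 were lower (12.4%) and 6 higher (20.5%), and the 6 were Ifi44, Rsad2, Ddx60, Ifit3, Zbp1 and Gbp3. The median log2 ratio of the members was -2.41 at d3 post-fracture, -1.34 at d3 post-polytrauma, -1.38 at d5 post-polytrauma and -0.22 at d5 post-fracture, beside medians of all genes of -0.36, -0.37, 0.16 and 0.21. The d5 post-fracture median lay on the other side of 0, at 0.65, among cells of FAP/MP-like clusters, which were named within each library, and at 0.22 without dividing cells. With the labels as deposited it was -1.34 at d5 post-fracture, with 18 members lower and 2 higher, and -0.22 at d3 post-polytrauma, with 8 lower and 6 higher. All 4 comparisons share the d0 library, so they are not independent of each other.

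Comparing the injuries at the same day, the members were higher after polytrauma than after fracture at d3, and lower at d5. At d3, 32 of 33 members were above a log2 ratio of 0, and 19 were at least 2-fold higher, where 1.70% of all genes were. No member was at least 2-fold lower, where 1.29% of all genes were. The median of the members was 1.11 and that of all genes -0.02. Irf7 (log2 ratio 2.31), Rtp4 (2.16), Iigp1 (1.84) and Isg15 (1.83) led. At d5, 32 of 33 members were below 0, and 18 were at least 2-fold lower, where 8.10% of all genes were. None was at least 2-fold higher, where 1.42% of all genes were. The median was -1.04, beside -0.07 for all genes, and Rsad2 (-2.47), Ifit3 (-2.25), Ifit1 (-2.23) and Iigp1 (-2.10) were the furthest down. The d5 post-fracture level of Rsad2 rests on 555 UMIs in 68 cells, 4.63% of that library. Ifi35 alone was above 0, at 0.11.

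Counted over both days, 31 of 33 members were above 0 at d3 and below 0 at d5, where 25.7% of all genes were. With 32 of 33 members on that side at each day, at least 31 had to be in both. This overlap is therefore not a further result. Isg15, Ifit1, Ifit3, Ifi203, Ifi207, Irgm1, Iigp1, Gbp3 and Ifi27l2a, 9 members or 27.3%, were at least 2-fold apart in both directions, where 0.291% of all genes were. Whether 9 is more than the 19 members at d3 and 18 at d5 give by themselves was not tested. The 2 days share no library. The assignment of the 2 libraries bears directly on this. With the labels as deposited, 28 members were at least 2-fold higher at d3 post-polytrauma, with a median of 2.24, and at d5 the median was -0.16 with 3 members higher and 5 lower. Both comparisons would then set libraries of different barcode sets against each other. The shares of all genes for them are not given, so these counts have no background beside them.

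**Figure D2:**
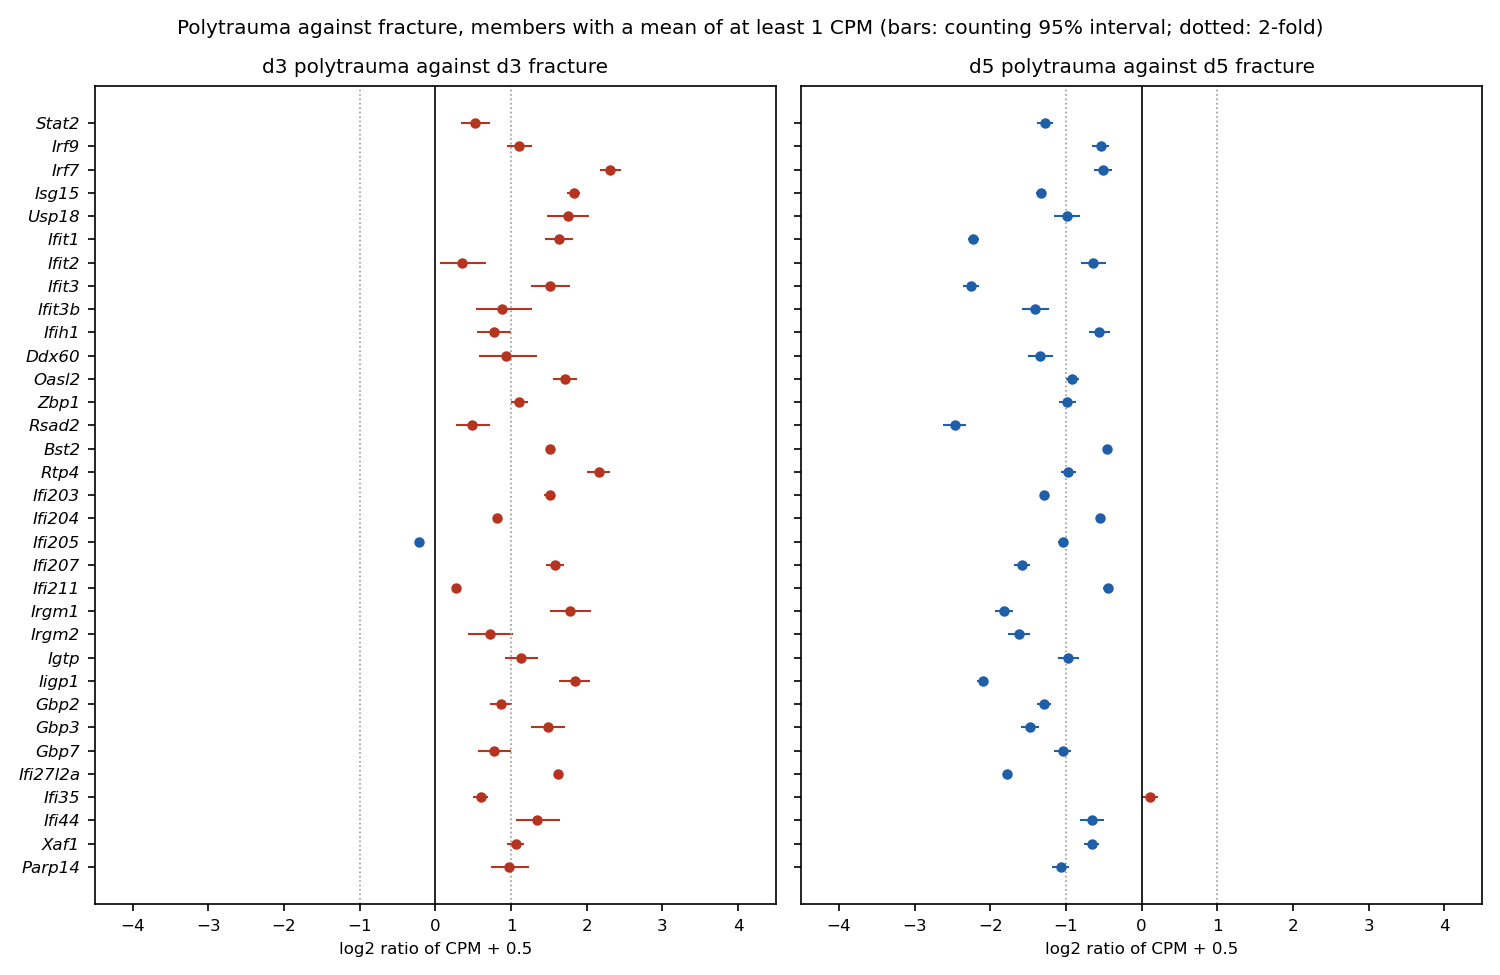
Log2 ratio of CPM + 0.5 of polytrauma against fracture for the 33 members, at d3 in the left panel and at d5 in the right, with counting 95% intervals and dotted lines at 2-fold. Every member except Ifi205 lies to the right of 0 at d3, and every member except Ifi35 to the left of 0 at d5.

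Hematopoietic markers moved with the d3 difference. The sum of the 9 markers was 49.5 CPM at d0, 28.6 at d3 post-fracture, 18.2 at d5 post-fracture, 115 at d3 post-polytrauma and 23.8 at d5 post-polytrauma. Lyz2 was at 10.7 CPM at d3 post-fracture and 32.9 at d3 post-polytrauma, and Cd74 at 8.28 and 46.5 CPM. Ptprc, which encodes CD45 and defines these cells, was at 0.190 and 0.687 CPM. With every cell that held at least 2 of the markers left out, the members were as far apart, with a median of 1.11 and 19 of 33 at least 2-fold higher, and Irf7 stood at 2.28, Isg15 at 1.79 and Ifi27l2a at 1.61. At d5 the same step left 18 members lower, with a median of -1.01. Among cells of FAP/MP-like clusters alone the d3 median was 0.65, with 11 members higher, and the d5 median -2.17, with 32 members lower. This choice leaves out the largest d3 post-polytrauma cluster, which holds 25.5% of the cells and 35.1% of the member UMIs. That cluster had all 5 FAP/MP markers above the average of the other clusters, but no name. With unnamed clusters that had at least 4 of these markers added, all 34 members passed the limit on low values, the d3 median was 1.07 with 19 of 34 higher, and the d5 median -2.18 with 33 of 34 lower. Named FAP/MP-like clusters held 86.4% of cells at d3 post-fracture, 47.8% at d3 post-polytrauma, 35.8% at d5 post-fracture and 87.4% at d5 post-polytrauma, and 48.8% of the d3 post-polytrauma cells lay in clusters without a name. The name was given relative to the other clusters of the same library, so it need not cover like cells in each. At d5 post-fracture the fibroblast-like clusters, at 381 to 518 CPM, lay outside it. Shares of all genes are not given for the counts in these clusters.

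Interferon transcripts themselves were all but absent from these sorted cells. Cells of the muscle that the sort for GFP left out were not measured. Of 10 ligand genes, 6 had no UMI in any library, among them Ifna1, Ifna2, Ifna4 and Ifna5. Ifnb1 reached at most 0.0200 CPM and Ifng at most 0.0600 CPM, both at d3 post-fracture, which rest on 2 and 6 UMIs. The receptors of both pathways were present. Ifnar1 was at 17.4 CPM at d0 and between 14.9 and 26.9 in the injured libraries, and Ifnar2 at 26.7 and between 33.6 and 47.4. Ifngr1, the ligand-binding chain of the interferon gamma receptor, was at 160 CPM at d0 and between 39.8 and 47.0 in the injured libraries. Ifngr2 was at 17.8 CPM at d0 and between 12.8 and 32.6 elsewhere, Il10rb at 15.9 and between 11.7 and 18.6, and Ifnlr1 at most at 0.0386.

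Of the other genes of the pathway, 48 of 68 listed had a mean of at least 1 CPM. At d3 post-fracture against d0, 23 of the 48 were at least 2-fold lower, where 27.7% of all genes were, and 1 was higher, where 11.1% were. That 1 was Tmem173, which encodes the DNA-pathway adaptor STING, with 45.0 against 18.4 CPM. Irf1, the factor downstream of interferon gamma, was at 214 CPM at d0, 12.2 at d3 post-fracture, 98.9 at d5 post-fracture, 6.84 at d3 post-polytrauma and 47.7 at d5 post-polytrauma. Irf8 was at 15.7, 1.20, 1.75, 2.46 and 0.865 CPM in this order. Both factors were lower in every injured library than at d0.

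Several genes of antigen presentation were highest at d0. B2m, the light chain of class I molecules, was at 1082 CPM at d0, 350 at d3 post-fracture, 387 at d5 post-fracture, 526 at d3 post-polytrauma and 183 at d5 post-polytrauma, and the heavy-chain gene H2-D1 was at 586, 124, 148, 187 and 98.9 CPM. The peptide transporter gene Tap2 was at 42.5, 10.3, 20.3, 15.3 and 12.5 CPM. The feedback inhibitors took another course, with Socs1 at 21.6 CPM at d0, 8.86 at d3 post-fracture, 169 at d5 post-fracture, 8.72 at d3 post-polytrauma and 80.5 at d5 post-polytrauma, and Socs3, an inhibitor of cytokine receptors, at 322, 80.2, 703, 86.3 and 328 CPM. Both were higher in each d5 library than in each d3 library. Among the injured libraries this split coincides with the barcode sets. The d0 library belongs to the barcode set of d3. It was below both d5 libraries for Socs1, and for Socs3 it was close to d5 post-polytrauma. Irf1 and these members had the same split: Stat2, Irf9, the IFIT genes, Ifih1, Ddx60, Oasl2, Irgm2, Igtp, Iigp1, Gbp2, Gbp7, Ifi44 and Parp14. The d0 library did not always lie on the side of d3. It was above both d5 libraries for Irf1, Stat2, Irf9 and Gbp2, among others, and below both for Ddx60 and Ifi44, among others. In some of these genes the intervals of a d5 and a d3 library overlapped, as for Oasl2. The other members that passed the limit on low values did not have the split between d5 and d3.

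Between the injuries, 5 of the 48 were at least 2-fold higher at d3 post-polytrauma (1.70% of all genes) and none was lower (1.29%). They were Cxcl9, a chemokine induced by interferon gamma (2.64 CPM at d3 post-fracture and 10.9 at d3 post-polytrauma), Oas1a (2.05 and 6.95), Dhx58 (1.21 and 3.98), Trim30a (1.93 and 5.35) and Sp100 (3.18 and 7.74). At d5, 10 of the 48 were at least 2-fold lower after polytrauma (8.10% of all genes) and none was higher (1.42%). Gbp5 was the furthest apart, with 12.4 CPM at d5 post-fracture and 1.15 at d5 post-polytrauma. Cxcl9, with 28.1 and 12.9 CPM, Oas1a and Trim30a were among the 10. Cxcl10, another interferon-induced chemokine, was at 110 CPM at d3 post-fracture and 117 at d3 post-polytrauma.

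To compare cells at equal depth, 2000 UMIs were drawn from each cell that held as many, which left out 744 cells at d0 and 30 to 424 in the other libraries. The mean was 4.27 member UMIs per drawn cell at d0, 1.08 at d3 post-fracture, 2.45 at d5 post-fracture, 2.22 at d3 post-polytrauma and 1.14 at d5 post-polytrauma. No member UMI was drawn in 17.9% of cells at d0 (exact 95% binomial interval 16.7 to 19.2), 52.2% at d3 post-fracture (50.9 to 53.5), 41.9% at d5 post-fracture (39.4 to 44.5), 34.7% at d3 post-polytrauma (33.5 to 35.9) and 49.6% at d5 post-polytrauma (48.7 to 50.5). The d5 post-fracture library therefore had more empty cells than d3 post-polytrauma at a higher mean.

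At least 5 different members were seen in 719 of 3888 cells at d0 (18.5%, interval 17.3 to 19.7), 88 of 5364 at d3 post-fracture (1.64%, 1.32 to 2.02), 165 of 1438 at d5 post-fracture (11.5%, 9.87 to 13.2), 450 of 6118 at d3 post-polytrauma (7.36%, 6.71 to 8.04) and 318 of 11517 at d5 post-polytrauma (2.76%, 2.47 to 3.08). The intervals of the 5 libraries did not overlap. UMIs were uneven over cells, with a variance of 3.77 to 8.54 times the mean, the highest at d5 post-fracture. The 5% of cells with most member UMIs held 25.5% of them at d0 and 30.4% to 38.3% in the injured libraries. Single cells reached 69 member UMIs of the 2000 drawn at d0 and 74 at d3 post-fracture.

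**Figure D3:**
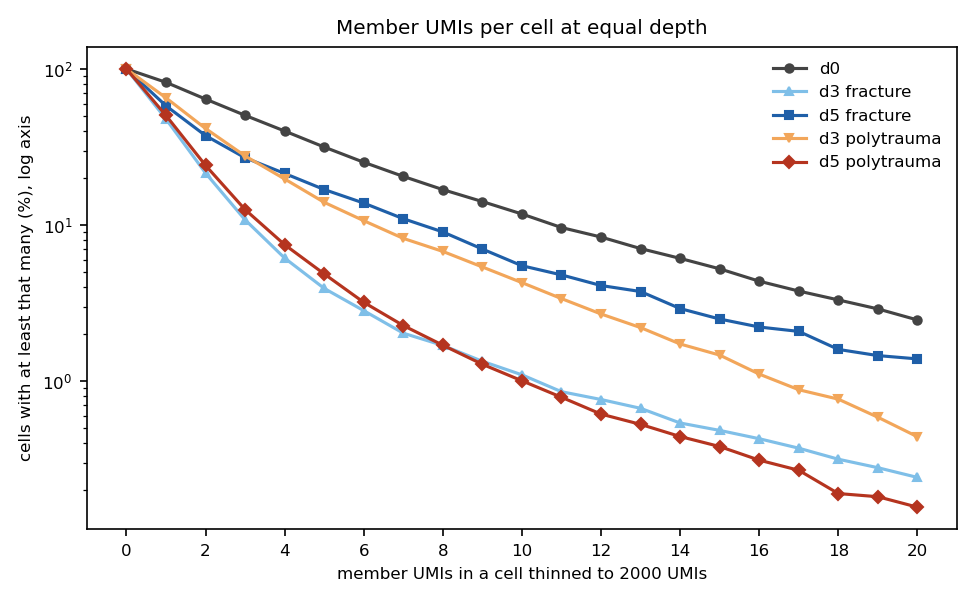
Share of cells (%, log axis) with at least a given number of member UMIs (x axis) after each cell was thinned to 2000 UMIs, with 1 line per library. The d0 line is the highest up to the 20 UMIs shown, the d5 post-fracture line starts below that of d3 post-polytrauma and lies above it from 4 UMIs on, and the d3 post-fracture and d5 post-polytrauma lines are the lowest.

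Members of different families were found in the same cells. Set A was the 4 IFIT genes with Isg15, Rsad2, Oasl2, Rtp4 and Usp18, and set B the 7 IRG and GBP genes. At d0, cells without a UMI of set A held 0.286 UMIs of set B on average (interval 0.267 to 0.306), cells with 1 held 0.630 (0.568 to 0.697) and cells with 2 or more held 1.46 (1.34 to 1.58). At d5 post-fracture these means were 0.163, 0.403 and 1.67, and at d3 post-polytrauma 0.0665, 0.194 and 0.612. The mean was higher with each step in all 5 libraries. No other gene sets were counted in this way, and the rise was not examined within clusters. How far it is particular to these genes was not tested. At d3 post-fracture 25 cells, 0.466% of those drawn, held 2 or more UMIs of set B, and they held 6.56 UMIs of set A on average (5.59 to 7.64), against 0.0582 in cells without set B.

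Cells were clustered within each library without the members, the pathway genes or the naming markers, so the members did not shape the clusters. Members were uneven among them, and FAP/MP-like clusters held both high and low values. At d0 the FAP/MP-like cluster 3 held 14.8% of the cells and 33.4% of the member UMIs, with 4874 CPM (4787 to 4962), whereas the other FAP/MP-like clusters ran from 1812 to 2850. In cluster 3 Ifi205 was at 1275 CPM, Ifi211 at 859, Ifi203 at 476 and Irgm1 at 208, and 53.8% of its drawn cells held at least 5 members (49.6 to 57.9). The pericyte-like cluster was at 715 CPM and the tenocyte-like clusters at 475 and 585. Not every gene followed the sum. Isg15 was at 297 CPM in the pericyte-like cluster (279 to 317) and at 126 in cluster 3 (112 to 141). Ifi27l2a was at 396 CPM in FAP/MP-like cluster 1, led by Mrgprg, Stmn4 and Daglb, and at 47.5 in cluster 3. An unnamed cluster of 38 cells, led by Gatm, Sfrp5 and Itgb4, was highest for 15 of the 33 members, with Isg15 at 670 CPM and Ifit1 at 227. This cluster held 312 member UMIs in all. Its median log2 ratio to the other cells was 1.06 for the members and -0.24 for all genes. Its HIN-200 genes were at 10.3 to 30.9 CPM, which rest on 1 to 3 UMIs each.

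At d5 post-fracture the members were concentrated in 2 FAP/MP-like clusters. Cluster 2, with 197 cells led by Cxcl14, Apod and Gdf10, was at 3573 CPM (3526 to 3621) and held the highest level of 26 of the 33 members. Cluster 6, with 132 cells led by Pi16 and Tnxb, was at 3121 CPM and was highest for 6. Against the other cells, the median log2 ratio of the members was 2.16 in cluster 2 and 1.26 in cluster 6. For all genes it was -0.13 and -0.19. The pericyte-like cluster was at 1517 CPM, the remaining FAP/MP-like cluster at 1181, the fibroblast-like clusters at 381 to 518 and the chondrocyte-like cluster at 109 (102 to 116). Ifit1 was at 291 CPM in cluster 2, 125 in cluster 6, 7.35 in fibroblast-like cluster 1 and 1.46 in the chondrocyte-like cluster. Rsad2 was at 71.7 CPM in cluster 2 and 6.36 in cluster 6, and no UMI of it was found in the chondrocyte-like cluster, which allows up to 0.413 CPM. Cluster 6 exceeded cluster 2 in Ifi205 (261 against 149 CPM) and Ifi27l2a (797 against 427). At least 5 members were seen in 42.8% of the drawn cells of cluster 2 and in none of those of the chondrocyte-like cluster (upper limit 1.95%).

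Chondrocyte-like cells had the lowest levels in both libraries in which they were named. Of the 33 members, 30 were lowest there at d5 post-fracture and 29 at d5 post-polytrauma, where the interval of the sum was 83.7 to 107 CPM. Against the other cells the median log2 ratio of the members was -3.56 and -2.41. For all genes it was -0.06 and -0.08. In no library was it counted how many of all genes were highest or lowest in a cluster. Pericyte-like clusters ran from 508 to 1517 CPM over the libraries, with the highest at d5 post-fracture and the lowest at d3 post-fracture.

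In the remaining libraries the few hematopoietic-like cells had the highest sum, followed by a FAP/MP-like cluster. At d3 post-fracture cluster 3, led by Saa3 and Pi16, was at 996 CPM (979 to 1013), against 203 in the largest cluster, and was at least 2-fold above the other cells for 28 of 33 members. Its median log2 ratio to the other cells was 1.62 for the members and 0.02 for all genes. The share of all genes at least 2-fold higher in this cluster was not counted. The division marker found most often was in 82.8% of cells of the largest cluster and 16.5% of those of cluster 3, at unequal depth. At d3 post-polytrauma cluster 3, led by Ccl8 and Car4, was at 2311 CPM (2276 to 2348), with Ifi27l2a at 769, Bst2 at 480 and Irf7 at 87.0. The largest cluster there, unnamed, was at 1330 CPM and held 35.1% of the member UMIs, and cluster 2, led by Ass1, Ddx39 and Tuba1b, was at 381. In that cluster 2 the division marker found most often was in 84.9% of cells, against 22.7% in cluster 3, again at unequal depth. At d5 post-polytrauma the FAP/MP-like clusters ran from 302 to 883 CPM, and the highest of them, cluster 3, led by Penk and Cxcl10, had Ifi203 at 91.3 CPM and Iigp1 at 35.4. The pericyte-like cluster of that library was at 849 CPM (800 to 900), within counting error of cluster 3 (872 to 894). It was highest for 11 of 33 members, and cluster 3 for 1.

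Hematopoietic-like clusters of 20, 91 and 28 cells were at 1922 CPM at d3 post-fracture, 3272 at d3 post-polytrauma and 1446 at d5 post-polytrauma. At d3 post-polytrauma Irf7 was at 178 CPM in these cells and Ifi27l2a at 1203, but no UMI of Iigp1 was found, which allows up to 8.52 CPM, against 28.0 in FAP/MP-like cluster 3. The 91 cells held 1.62% of the member UMIs of their library.

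**Figure D4:**
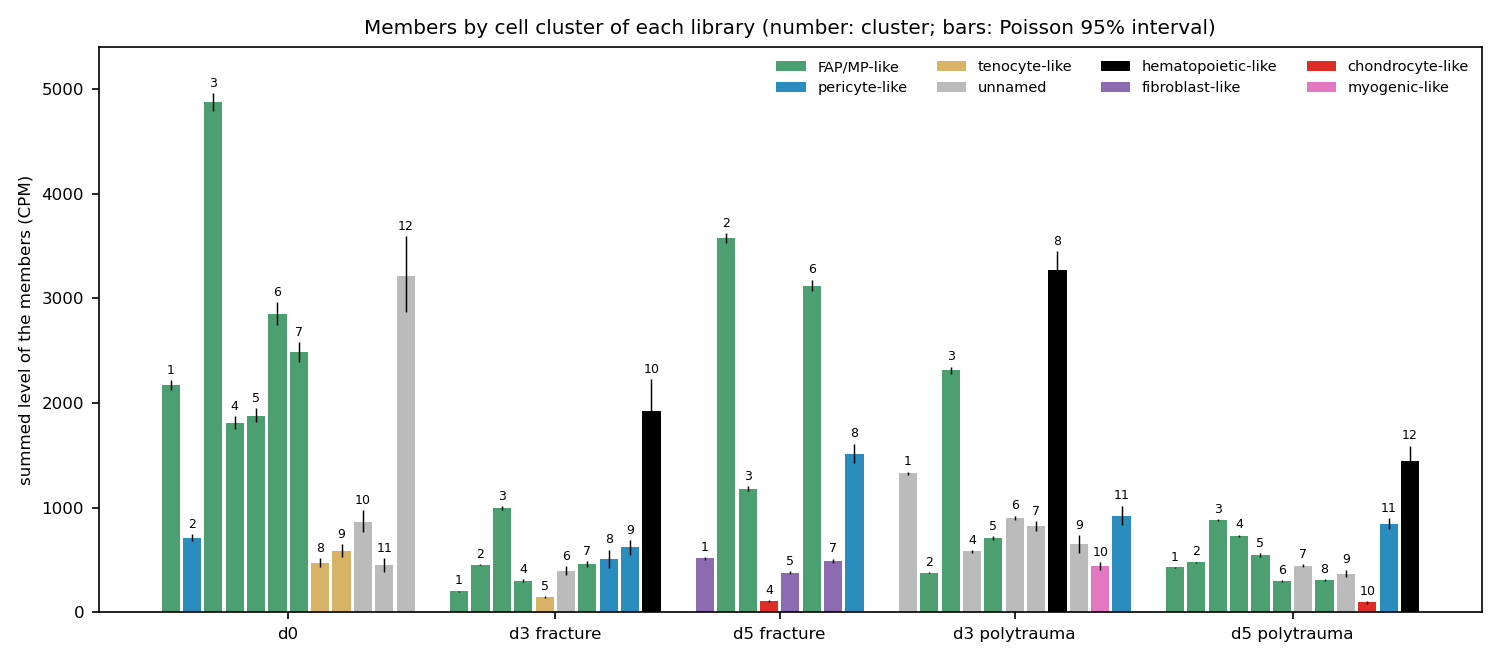
Summed level of the members (CPM, y axis) in each cluster of each library, numbered within its library and coloured by the type its markers gave, with 95% Poisson intervals. FAP/MP-like bars are the tallest at d0 and d5 post-fracture, hematopoietic-like bars at d3 and d5 post-polytrauma and d3 post-fracture, and the chondrocyte-like bars are the shortest of the d5 libraries.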

How the data were processed

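GFP+ cells sorted from hindlimb muscle were profiled with 10x 3' libraries, 1 per condition. Reads were mapped by the authors to mm10 with Cell Ranger, and they deposited raw UMI counts per gene and barcode without normalization (matrix headers name version 3.1.0; Seurat 3.1.2 is named in the submitters' processing notes). The members and gene lists were chosen with earlier results of these data known. Any member may be named, and a further pathway gene only if it is a ligand or receptor or differs at least 2-fold in d3 polytrauma against d3 fracture, d5 polytrauma against d5 fracture or d3 fracture against d0. Genes named as leading a cluster were chosen after their values were seen, as was Cxcl10, for which no such difference holds. The values of 1 further pathway gene are not reported here.

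Cells with 350 to 8000 genes, under 20% mitochondrial UMIs and at least 1000 UMIs were kept. UMIs were summed per library and scaled to CPM. Intervals are exact (95%): Poisson for levels, conditional binomial for ratios and Clopper-Pearson for shares. Ratios are log2 of CPM + 0.5, and genes with a mean under 1 CPM were left out of counts. A count of 0 is given with the upper bound of its Poisson interval. Intervals cover counting error only. The median's interval is that of the member at the median.

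Each library was clustered by itself in scanpy 1.11.5 (2000 variable genes, 20 principal components, 20 neighbours, Leiden resolution 0.5). Clusters were named from a fixed list of markers, by a rule set after seeing the data. The rule also weighed which markers were among the leading genes of a cluster. Fibroblast-like clusters led by Bglap were left without a name. So were clusters far below the median depth of their library that had no marker of the type among their leading genes. A marker counted for a cluster only where its mean was above the average of the other clusters of that library. Possible doublets, the highest Scrublet scores at 0.8% per 1000 cells, and barcodes found in more than 1 library were kept and were left out as alternatives. Ratios, intervals and thinning were run on simulated data with known values. Those data held counting error only, so they do not show how the intervals hold for counts as uneven over cells as these. Python 3.11.15, numpy 2.4.6, scipy 1.17.1, pandas 2.3.3, igraph 0.11.9 and matplotlib 3.10.9 were used. Leaving out dividing cells (at least 2 of Top2a, Mki67, Cdk1 and Birc5), or hematopoietic-like and myogenic-like clusters, and adding unnamed clusters with 4 FAP/MP markers to FAP/MP-like ones, were chosen after seeing the data.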

Additional observations from a re-analysis of the deposited data

Results flagged for a closer look

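The ratio of polytrauma to fracture had opposite signs at the 2 days. The median log2 ratio of the 33 members was 1.11 at d3 and -1.04 at d5. Among the members at least 2-fold apart both times, Isg15 was at 1.83 and -1.33, Ifit1 at 1.63 and -2.23, Ifit3 at 1.52 and -2.25, Ifi203 at 1.51 and -1.29, and Ifi207 at 1.58 and -1.58. Irgm1 was at 1.78 and -1.82, Iigp1 at 1.84 and -2.10, Gbp3 at 1.49 and -1.47, and Ifi27l2a at 1.62 and -1.78. With 1 library per condition the difference between the days was not tested. Both ratios use a library whose deposited label was not followed, and with the labels as deposited the medians were 2.24 and -0.16. Col2a1, the collagen of cartilage, was at 1525 CPM in the library used as d5 post-fracture and at 0.106 CPM in the one deposited under that label.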

How the results depend on the processing

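No paired analysis was possible because each condition has 1 library and no result comes from a test. Counts of members under an alternative are given without the share of all genes, so they have no background beside them. No count, median or share moved beyond its counting interval, or a count by over 1.5 times, without cells with 2 hematopoietic markers, hematopoietic-like and myogenic-like clusters, shared barcodes or possible doublets, without the UMI floor or without the filter on low values. With the deposited labels, the median against d0 was -0.22 at d3 post-polytrauma (6 members higher, 8 lower) and -1.34 at d5 post-fracture (2 higher, 18 lower), and polytrauma against fracture gave 2.24 at d3 and -0.16 at d5 (3 higher, 5 lower). The share of cells with at least 5 members was then 7.36% at d5 post-fracture and 11.5% at d3 post-polytrauma.

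In FAP/MP-like clusters the medians against d0 were -2.68 (d3 post-fracture), -2.12 (d3 post-polytrauma, 1 higher), 0.65 (d5 post-fracture, 12 higher, 4 lower) and -1.61 (d5 post-polytrauma), and polytrauma against fracture gave 0.65 (11 higher) at d3 and -2.17 (32 lower) at d5. With unnamed clusters of at least 4 FAP/MP markers added, d5 post-fracture against d0 gave 0.71 (13 higher, 4 lower) and the injuries -2.18 at d5 (33 lower). Without dividing cells, d3 post-fracture against d0 gave -1.99 (2 higher), d5 post-fracture 0.22, d3 post-polytrauma 4 higher, and d5 polytrauma against fracture -1.20. Median-of-ratios scaling gave -2.07, -0.99 and -0.47 against d0 for d3 post-fracture, for d3 post-polytrauma and for d5 post-fracture, and -0.91 for the injuries at d5. With a mean of at least 5 CPM, 0 members were higher at d3 post-fracture, the medians were -1.63 at d3 post-polytrauma (1 higher), -0.43 at d5 post-fracture (3 higher) and -1.61 at d5 post-polytrauma (0 higher). A pseudocount of 0.1 gave -2.68 for d3 post-fracture against d0 and 1.30 for the injuries at d3, and thinned cells gave -2.05 and 0.92. The causes were not tested.

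The share of cells with at least 5 members, drawn to 1000 and to 4000 UMIs, was 6.69% and 35.6% at d0, 0.698% and 3.81% at d3 post-fracture, 4.36% and 22.3% at d5 post-fracture, 2.00% and 17.8% at d3 post-polytrauma, and 0.846% and 7.94% at d5 post-polytrauma. With at least 3 members it was 42.5%, 6.95%, 23.9%, 21.8% and 9.65% in that order, and without dividing cells 2.53%, 15.0%, 10.3% and 3.51% in the 4 injured libraries. At d0 the median depth of 3640 UMIs limits what can be seen per cell.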
